A study of Drosophila melanogaster with 2 samples.

Results

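The genes described here are the small nucleolar RNA (snoRNA) and small Cajal body RNA (scaRNA) genes of Drosophila melanogaster, together with the host genes that contain them. They were taken from Ensembl as noncoding genes whose symbol begins with snoRNA: or scaRNA:, which gave 274 genes out of 3951 RNA genes and 18164 genes of all kinds on chromosomes 2L, 2R, 3L, 3R, 4 and X. The data are chromatin immunoprecipitation with sequencing (ChIP-seq) of whole embryos aged 0 to 24 hours, males and females together, from a transgenic line that stably makes the CG10462 protein carrying GFP at its C-terminus. An antibody to GFP was used, and the chromatin was sonicated to a size range of 200 to 800 bp. There is a single group of 2 samples, biological replicates 2 and 3, both of the CG10462-eGFP line. Binding below is that of the tagged protein in all tissues of the embryo at once, and an untagged sample was not analysed here.

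The deposited values are peak lists in genome build dm6, in which each peak has a summit and a signal value from the authors' peak caller. The optimal list, derived by the authors with the irreproducible discovery rate from both replicates, holds 2993 peaks, which are the strongest 2993 of the 30000 entries of a relaxed list called on pooled reads. Each replicate also has a relaxed list of 30000 entries, which per the deposited notes holds background as well as peaks. Ranks below count from 1 for the strongest signal within a list, and the signal has no stated scaling, so only ranks were compared. At an occupied host the replicate ranks are those of the entry that overlaps the optimal peak, and at an unoccupied one those of the best entry within 500 bp of a start. No read counts are in the lists, so the sequencing depth is unknown. Both combined lists draw on the same 2 replicates, and the genes share hosts and summits, so the counts below are descriptions without a test.

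SnoRNAs guide chemical changes in other RNAs by base pairing. Box C/D snoRNAs direct 2′-O-methylation and carry a C box near the 5′ end and a D box near the 3′ end, whereas box H/ACA snoRNAs direct pseudouridylation and end shortly after an ACA box. ScaRNAs guide the same changes in spliceosomal RNAs within Cajal bodies. In flies most of these genes lie in introns of a host gene and are released from its transcript, so the promoter that matters for them is usually that of the host.

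By their names, 93 of the 274 genes were of the C/D kind, 115 of the H/ACA kind and 17 were scaRNAs, and 49 had names that do not tell. Their median length was 134 bases, and the shortest and longest had 46 and 511 bases. The names were checked against the sequence. The C box letters TGATGA stood within the first 20 bases of 64 of the 93 C/D genes and the D box letters CTGA within the last 20 bases of 84, with both in 62. Of the 115 genes named as H/ACA, 106 had ACA exactly 3 bases before the end and 0 had both C/D boxes. The 8 genes shown next are those on 3L and X that had an optimal-list summit within 500 bp, joined by the related copies in the same host, since their distance to the host's promoter carries the counts below. Their sequences were read 5′ to 3′ on the gene's strand from the RefSeq genome file of Release 6, the assembly of dm6. Capitals mark the C and D boxes of the C/D kind and the ACA box of the H/ACA kind. The 3 Or-CD11 copies of RpL28 lie at chr3L:3222475-3222541 (minus strand), chr3L:3222263-3222329 (minus strand) and chr3L:3222050-3222116 (minus strand).
snoRNA:Or-CD11a: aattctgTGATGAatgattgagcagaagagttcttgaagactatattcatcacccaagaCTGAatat
snoRNA:Or-CD11b: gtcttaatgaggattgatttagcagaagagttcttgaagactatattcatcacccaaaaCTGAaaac
snoRNA:Or-CD11c: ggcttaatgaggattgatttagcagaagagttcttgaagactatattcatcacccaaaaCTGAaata
The 2 U49 copies of RpL14 lie at chr3L:8601473-8601552 (plus strand) and chr3L:8601948-8602031 (plus strand).
snoRNA:U49:66Da: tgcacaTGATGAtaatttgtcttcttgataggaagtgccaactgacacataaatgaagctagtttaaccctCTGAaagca
snoRNA:U49:66Db: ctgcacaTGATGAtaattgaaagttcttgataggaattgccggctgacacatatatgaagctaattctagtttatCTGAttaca
The 2 copies of Me28S-A774 in RpS12 lie at chr3L:13023580-13023652 (plus strand) and chr3L:13024226-13024298 (plus strand), and the H/ACA gene Psi28S-1232 of RpL17 lies at chrX:6743675-6743815 (minus strand).
snoRNA:Me28S-A774b: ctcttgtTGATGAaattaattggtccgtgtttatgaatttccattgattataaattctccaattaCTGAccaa
snoRNA:Me28S-A774a: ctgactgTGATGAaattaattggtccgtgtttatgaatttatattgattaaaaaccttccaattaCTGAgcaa
snoRNA:Psi28S-1232: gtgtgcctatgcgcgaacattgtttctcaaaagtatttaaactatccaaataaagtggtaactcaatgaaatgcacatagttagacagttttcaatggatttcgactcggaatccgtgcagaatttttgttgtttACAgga

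The Or-CD11a copy, which lies nearest to the summit, had the full C box letters and was 82.1% identical to each of the other copies, while Or-CD11b and Or-CD11c were 95.5% identical to each other and lacked TGATGA. The U49 copies were 76.2% identical and the Me28S-A774 copies 84.9% identical. The optimal-list summits within 500 bp of these genes lay at least 310 bp upstream of their starts.

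Of the 274 genes, 251 lay inside a gene on the same strand, and these made up 96 hosts. Ribosomal protein genes were 28 of the hosts and held 71 snoRNA or scaRNA genes. Another 58 hosts were other protein-coding genes with 125, and 10 were noncoding hosts with 55, among them the Uhg genes, whose name stands for U snoRNA host gene. Introns held 228 of the 251 entirely, and 42 of the 236 that could be given an intron number were in intron 1. The start of the RNA lay a median of 1465 bp from the nearest transcript start of its host. For the 12 genes contained in more than 1 gene the smallest was taken as the host.

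At the snoRNA and scaRNA genes themselves the share with a summit was near that of other RNA genes at close range, and 29 of the 32 nearest summits within 1000 bp lay upstream. An optimal-list summit stood within 500 bp of the start of 7 of the 274 genes (2.55%), against 3.80% of all 3951 RNA genes and 143 of 3677 (3.89%) of the RNA genes outside the list. Within 1000 bp the count was 32 of 274 (11.7%), against 7.24% of all RNA genes and 254 of 3677 (6.91%) of those outside the list. Within 200 bp there was 1, snoRNA:Psi28S-2949, and within 2000 bp there were 83. Shares of other RNA genes at 200 and 2000 bp are not given here, so no comparison is made at these distances.

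**Figure D1:**
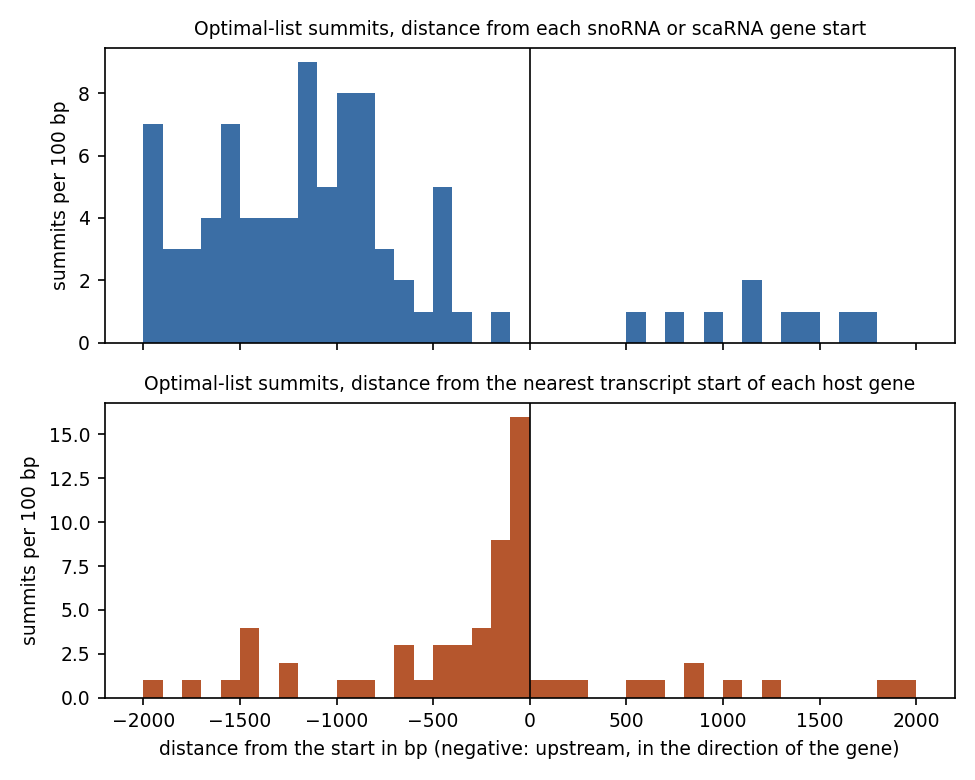
Number of optimal-list summits per 100 bp at each distance (bp) from the start of the 274 snoRNA and scaRNA genes (upper panel) and from the nearest transcript start of the 96 hosts (lower panel); a summit counts once for each gene it is near. Of 88 summit and gene pairs within 2000 bp of a snoRNA or scaRNA start, 79 were upstream and 1 lay within 200 bp, whereas 27 of 61 pairs at hosts lay within 200 bp.

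The 7 genes with a summit within 500 bp shared 6 summits, and 5 of these summits stood at the host's promoter. The genes snoRNA:Psi28S-2949 and snoRNA:Or-aca5, both of the H/ACA kind, are the leading RNAs of the noncoding host Uhg4, and the summit lay 182 and 495 bp upstream of them. That summit ranked 786 in the pooled list, 723 in replicate 2 and 893 in replicate 3. The summit 476 bp upstream of Or-CD11a, at the promoter of RpL28, ranked 673, 680 in replicate 2 and 763 in replicate 3. These 2 promoters therefore ranked alike in both replicates.

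The other ribosomal protein hosts among the 7 ranked better in replicate 2. The summit 481 bp upstream of U49:66Da in RpL14 ranked 690 in the pooled list, 565 in replicate 2 and 1467 in replicate 3. That 310 bp upstream of Me28S-A774b in RpS12 ranked 1425 in the pooled list, 1024 in replicate 2 and 2362 in replicate 3. That 458 bp upstream of Psi28S-1232 in RpL17 ranked 1623 in the pooled list, 1210 in replicate 2 and 3182 in replicate 3. Closest to the limit of 500 bp were Or-aca5 inside at 495 bp and snoRNA:Or-CD13 outside at 565 bp. At the longer distance Me28S-U2134a of RpL13A was inside at 969 bp and Psi28S-3327a of RpS4 outside at 1023 bp.

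Among the 6 summits within 500 bp of a snoRNA or scaRNA gene, a single summit was at no host promoter. It lay on 2R at position 10081757 and ranked 1175 in the pooled list, 1495 in replicate 2 and 868 in replicate 3. Around it stand snoRNA:Or-ACA6 (432 bp), snoRNA:Or-CD13 (565 bp) and scaRNA:MeU1b-A234 (833 bp), all without a host on their own strand and on the strand opposite to egr, whose gene body contains them. The nearest start of any gene outside the list was 3391 bp from the summit. A neighbour, snoRNA:Or-ACA7, also opposite egr, was 1063 bp away. Of the 162 snoRNA and scaRNA genes over 1000 bp from every start of another gene, Or-ACA6 was the only one with an optimal-list summit within 500 bp, and 8 had one within 1000 bp.

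Most snoRNA and scaRNA genes with a summit lay within 1000 bp of the start of another gene, mostly their host. Of 47 snoRNA and scaRNA genes within 500 bp of another gene's start, 6 had a summit within 500 bp and 9 within 1000 bp. For the 65 genes between 500 and 1000 bp from such a start, the counts were 0 and 15. For the 84 genes between 1000 and 2000 bp away they were 0 and 5, for 67 genes between 2000 and 5000 bp away 1 and 3, and for the 11 farther ones 0 and 0. Counts at the same distances are not given here for other RNA genes, so no trait particular to snoRNA and scaRNA genes is meant. For 24 of the 32 genes within 1000 bp, the nearest summit was the one called at the host's start. The remaining 8 were the 3 genes opposite egr and Me18S-G1358a of drn, Psi18S-1347a of pAbp, the gene of poly(A)-binding protein, Me28S-U3344a of Stt3A, and lola-a and lola-b of lola. By named kind, 16 of 93 C/D genes, 8 of 115 H/ACA genes, 2 of 17 scaRNAs and 6 of 49 others had a summit within 1000 bp, against 7.24% of all RNA genes. The H/ACA share was 6.96% and the C/D share 17.2%, and the C/D genes included all 3 Or-CD11 copies of RpL28.

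At occupied hosts the summits mostly lay just upstream of a start. A host is called occupied when an optimal-list summit lay within 500 bp of any of its transcript starts. Of the 96 hosts 37 were occupied (38.5%), against 14.7% of all 13945 protein-coding genes and 4.24% of 3256 noncoding (ncRNA) genes outside the list. The occupied hosts held 113 of the 274 snoRNA and scaRNA genes. The summit lay upstream of the start in 34 of the 37, with a median offset of -97 bp, and within 200 bp in 27. It lay downstream in 3, namely RpL30 (3 bp), CG12316 (182 bp) and SC35 (248 bp), a splicing factor gene. The limit of 500 bp is part of the definition, and offsets at all other occupied genes are not given here. The offsets therefore describe these summits and no trait particular to hosts. At 23 of the 37 the same summit was also within 500 bp of a start of another gene, for example eIF1 at RpL28 and Nelf-E at RpL14, so it cannot be assigned to the host alone.

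**Figure D2:**
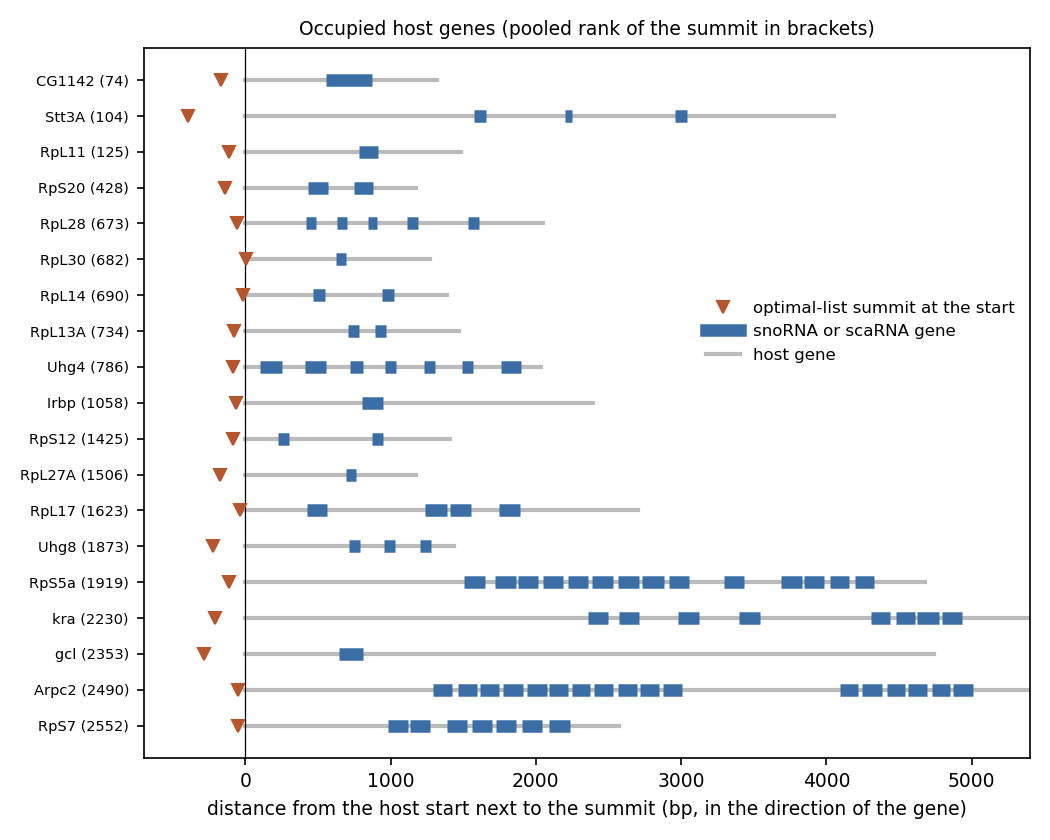
Occupied hosts with a snoRNA or scaRNA gene within 1000 bp of an optimal-list summit, or with at least 5 such genes, whose summit is nearest to the start of the gene record, in the order of pooled rank (in brackets); the x axis is the distance in bp from that start to the summit (triangle). In most hosts the triangle stands just upstream of the start and the snoRNA and scaRNA genes (blocks) follow inside the host (line); the far parts of long hosts lie beyond the axis.

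Ribosomal protein hosts were occupied more often than the other classes, and ribosomal protein genes not taken as hosts were also often occupied. Among ribosomal protein genes 16 of 28 hosts (57.1%) were occupied, against 25 of 58 not taken as a host (43.1%). With the strongest 2993 entries of replicate 2 alone these were 17 of 28 (60.7%) and 31 of 58 (53.4%), and with those of replicate 3 alone 11 of 28 (39.3%) and 16 of 58 (27.6%). The 58 include RpL23A, which also contains snoRNA genes that were assigned to the smaller gene Uhg7. RpL23A was occupied, with a pooled rank of 354. Of the other protein-coding hosts 19 of 58 (32.8%) were occupied, against 1987 of 13801 (14.4%) that host none. Of the noncoding hosts 2 of 10, Uhg4 and Uhg8, were occupied, against the 138 of 3256 noncoding genes given above. Hosts of 1 snoRNA or scaRNA were occupied in 17 of 59 cases and hosts of 2 or more in 20 of 37. None of these shares was tested against the other. In the pooled relaxed list 84 of the 96 hosts had an entry within 500 bp of a start, against 50.8% of protein-coding genes. In replicate 2 there were 86, against 53.2%, and in replicate 3 there were 70, against 44.3%. Among ribosomal protein genes the pooled relaxed list had an entry at 26 of 28 hosts (92.9%) and at 56 of 58 not taken as a host (96.6%). In replicate 2 these were 27 (96.4%) and 55 (94.8%), and in replicate 3 they were 23 (82.1%) and 44 (75.9%).

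**Figure D3:**
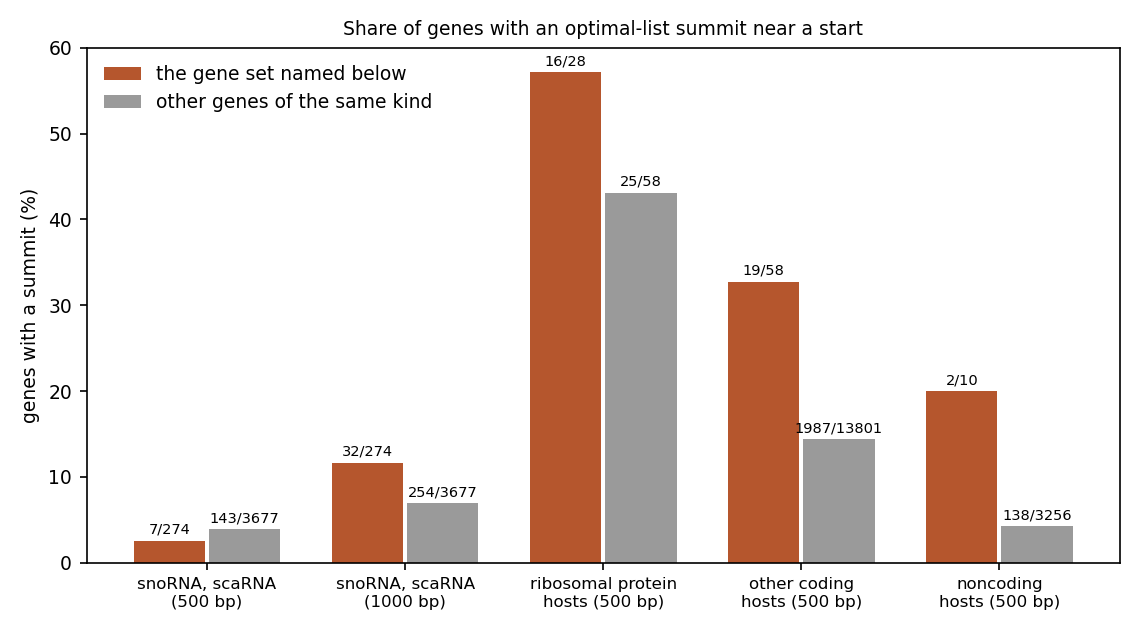
Percentage of genes with an optimal-list summit near a start, for snoRNA and scaRNA genes and 3 classes of host (coloured) beside other genes of the same kind (grey), with the counts above the bars. For noncoding hosts the grey bar takes all ncRNA genes outside the list of snoRNA and scaRNA genes, the hosts included. At hosts the coloured bar is higher in each class, and at 500 bp from the RNAs themselves both are low (7 of 274 against 143 of 3677).

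Among protein-coding hosts outside the ribosomal proteins, the best ranks were those of CG1142 and Stt3A. The summit 167 bp upstream of CG1142, host of scaRNA:MeU5-C46, ranked 74 in the pooled list, 73 in replicate 2 and 94 in replicate 3. Stt3A, coding for a subunit of the enzyme that transfers sugar chains to proteins, hosts 3 of these RNAs and ranked 104 in the pooled list, 91 in replicate 2 and 167 in replicate 3. Its summit lay 392 bp upstream and was also within 500 bp of bves. Msp300, coding for a giant protein that links nuclei to the cytoskeleton, ranked 273 in the pooled list, 503 in replicate 2 and 133 in replicate 3. The only RNA it hosts, snoRNA:Psi18S-525k, lies 50634 bp from the nearest start of Msp300, the farthest of all hosted genes.

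Further down were lola, which codes for a zinc finger transcription factor, with pooled rank 831, and drn with 837. Both ranked better in replicate 3, lola at 1276 in replicate 2 and 496 in replicate 3, drn at 1253 in replicate 2 and 619 in replicate 3. For lola the replicate 2 entry that overlaps the pooled peak has its summit beyond 500 bp from a start, and the best one within 500 bp ranked 4599. Irbp, the fly Ku70 gene of DNA end joining, ranked 1058 in the pooled list, 953 in replicate 2 and 1239 in replicate 3. CG12316, host of scaRNA:MeU5-U42, ranked 742 in the pooled list, 952 in replicate 2 and 735 in replicate 3. The last occupied host was SC35 at 2992, next to the end of the list. Just outside it were mask at 3004 and eEF1alpha1, coding for a translation elongation factor, at 3024.

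Among the ribosomal protein hosts, which code for the protein parts of the ribosome, RpL11 ranked best. Its summit 110 bp upstream of the start ranked 125 in the pooled list, 74 in replicate 2 and 258 in replicate 3. RpS20 followed at 428 in the pooled list, 533 in replicate 2 and 451 in replicate 3, and was the only occupied ribosomal protein host with the better rank in replicate 3. RpL30 ranked 682 in the pooled list, 633 in replicate 2 and 1301 in replicate 3. RpL13A ranked 734, 481 in replicate 2 and 2521 in replicate 3. The widest gap between the replicates was at RpL4, with a pooled rank of 1563, a rank of 868 in replicate 2 and one of 12095 in replicate 3. RpL22 ranked 1300, 889 in replicate 2 and 6278 in replicate 3, and RpL27A 1506, 1096 in replicate 2 and 1375 in replicate 3. RpS16, which holds a C/D gene with a summit within 1000 bp, ranked 2792 in the pooled list, 1766 in replicate 2 and 4715 in replicate 3.

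Occupied ribosomal protein hosts ranked better in replicate 2 at nearly every promoter, and the other occupied hosts were split. The rank was better in replicate 2 at 15 of 16 occupied ribosomal protein hosts and at 11 of 21 other occupied hosts, against 1370 of the 2948 optimal-list peaks with an entry in both replicates (46.5%). The median rank of the 16 was 956.5 in replicate 2 and 2378.5 in replicate 3, and that of the 21 was 1514 in replicate 2 and 1295 in replicate 3. Of the 25 occupied ribosomal protein genes not taken as a host, RpL23A among them, 23 had an entry in both replicates. The rank was better in replicate 2 at 20 of these 23. Among unoccupied hosts the best or only entry within 500 bp of a start was in replicate 2 at 10 of 12 ribosomal protein hosts and at 31 of 47 others, and in replicate 3 at 1 and 12. Over all protein-coding genes the relaxed list of replicate 2 also reached more starts, 53.2% against 44.3% in replicate 3. The labels name a separate protocol document for each replicate. With the strongest 2993 entries of replicate 2 alone, 39 hosts were occupied, against 14.7% of protein-coding genes. With those of replicate 3 alone the count was 28, against 13.9%.

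**Figure D4:**
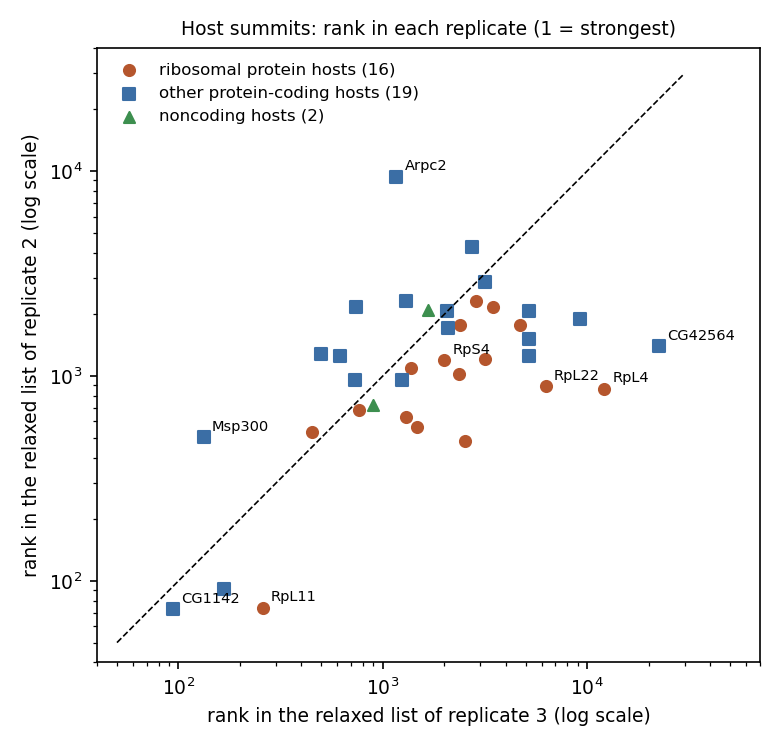
Rank of the peak at each of the 37 occupied hosts in the relaxed list of replicate 3 (x axis) and of replicate 2 (y axis), both on log scales with 1 as the strongest; the dashed line marks equal ranks. Points below the line rank better in replicate 2, which holds for 15 of 16 ribosomal protein hosts and 11 of 21 others.

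The hosts with the most snoRNA genes were split between occupied and unoccupied. Arpc2, coding for a subunit of an actin-nucleating complex, holds 17 copies of Psi18S-525 and Psi18S-640 and was occupied 53 bp upstream of its start, with a pooled rank of 2490, a rank of 9396 in replicate 2 and one of 1165 in replicate 3. RpS5a holds 14 H/ACA genes and ranked 1919 in the pooled list, 1782 in replicate 2 and 2395 in replicate 3. The gene kra, coding for a translation regulator, holds 8 and ranked 2230 in the pooled list, 2074 in replicate 2 and 2059 in replicate 3. RpS7 with 7 ranked 2552, 2180 in replicate 2 and 3471 in replicate 3, and Uhg4 with 7 is described above. None of the 17 RNAs of Arpc2, the 14 of RpS5a, the 8 of kra or the 7 of RpS7 had an optimal-list summit within 1000 bp of its own start, and the RNA nearest to a start of its host lay between 447 and 1258 bp from it in these 4 hosts.

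Uhg1 (16 genes), dom (15), Uhg5 (11), Hrb98DE (7) and Nop60B (7) were not occupied. Uhg1 missed the optimal list narrowly: its entry in the pooled relaxed list ranked 3108, with 5305 in replicate 2 and 1935 in replicate 3. Hrb98DE, coding for an RNA-binding protein of nuclear transcripts, had a pooled entry at 4660, one at 6067 in replicate 2 and one at 3509 in replicate 3. The chromatin remodelling ATPase gene dom had one at 6911 and one at 2783 in replicate 2, with no entry within 500 bp in replicate 3. Uhg5 had entries at 9779, 10856 in replicate 2 and 21691 in replicate 3. Of the 14 hosts with at least 5 of these RNAs, which hold 129 in all, 7 were occupied.

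The sequence under the host summits differed between the classes in base composition. In the 100 bp around the summit the median GC content was 44% at the 16 ribosomal protein hosts, against 32% at the 21 other occupied hosts and 32% at all 2993 optimal-list summits. In a 100 bp window centred 400 bp to the left the medians were 43.5% at the ribosomal protein hosts, 45% at the others and 45% over the list. Only this side was measured, by genome coordinate and not by the strand of the host. The flank can therefore lie upstream of the host or inside it. The centre was lower in GC than this flank at 7 of 16 ribosomal protein hosts, against 17 of 21 other hosts and 80.8% of all optimal-list summits. Occupied ribosomal protein genes not taken as a host, RpL23A among them, had a central median of 42%. The 7 windows shown next are those of the best ranked occupied hosts on 2L, 3L, 3R and X, down to RpS12, whose 121 bases centred on the summit overlap no annotated exon. They are printed 5′ to 3′ on the strand of the host, from the RefSeq genome file of Release 6 (dm6), to show these 2 kinds of sequence side by side. Capitals mark the longest run of A and T in all but RpS12, where they mark TATCGATA. The windows of hosts outside the ribosomal proteins are CG1142 at chr3R:7473888-7474008 (minus strand), Msp300 at chr2L:5108122-5108242 (plus strand) and Irbp at chr3R:11409922-11410042 (plus strand).
CG1142: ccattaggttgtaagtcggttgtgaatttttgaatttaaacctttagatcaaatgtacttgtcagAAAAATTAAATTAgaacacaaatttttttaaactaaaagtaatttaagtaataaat
Msp300: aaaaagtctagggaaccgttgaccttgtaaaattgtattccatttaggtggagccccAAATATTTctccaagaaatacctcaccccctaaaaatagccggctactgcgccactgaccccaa
Irbp: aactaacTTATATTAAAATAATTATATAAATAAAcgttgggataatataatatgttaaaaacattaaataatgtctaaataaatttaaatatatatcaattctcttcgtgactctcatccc
The windows of ribosomal protein hosts are RpS20 at chr3R:20821983-20822103 (plus strand), RpL13A at chr3R:5624338-5624458 (plus strand), RpL22 at chrX:765152-765272 (minus strand) and RpS12 at chr3L:13023210-13023330 (plus strand).
RpS20: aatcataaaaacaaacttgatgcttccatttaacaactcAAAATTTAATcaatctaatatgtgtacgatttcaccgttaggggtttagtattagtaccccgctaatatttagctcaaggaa
RpL13A: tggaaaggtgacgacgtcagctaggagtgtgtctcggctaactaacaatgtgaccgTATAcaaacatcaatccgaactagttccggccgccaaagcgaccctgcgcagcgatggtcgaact
RpL22: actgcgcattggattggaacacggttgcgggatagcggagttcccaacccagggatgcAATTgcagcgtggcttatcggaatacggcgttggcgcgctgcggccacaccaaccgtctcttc
RpS12: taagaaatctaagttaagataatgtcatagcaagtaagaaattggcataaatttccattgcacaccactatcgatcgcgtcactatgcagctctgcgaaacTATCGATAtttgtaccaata

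Within these windows GC content was 22.3% at CG1142 and 19.0% at Irbp, where the longest run of A and T had 13 and 27 bases. At RpL13A and RpL22 it was 52.9% and 59.5%, with runs of 4 bases. The classes overlapped, since the window of Msp300 had 44.6% and that of RpS20 31.4%. RpL27A had the lowest central GC of the ribosomal protein hosts at 20%, and RpL22 the highest at 60%.

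Known promoter letters were counted in the 300 bases from 250 bp upstream of the gene start, on both strands unless stated otherwise. TATCGATA, the core of the DNA replication-related element, was present at 18 of the 86 protein-coding hosts (20.9%), against 9.36% of the 13945 protein-coding genes, and at 6 of the 35 occupied ones. CTTT starting within 5 bases of the gene start on the sense strand, as in the TCT initiator of ribosomal protein genes, was present at 16 of 86 (18.6%), against 5.64%, and 10 of these were ribosomal protein hosts. TATAAA stood at 43.0% against 45.8%, GAGAG at 32.6% against 29.7%, GGTCACACT at 8.14% against 6.05% and CAGCTG at 9.30% against 17.7%. A match describes letters in the window and no binding of any factor.

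Of the 17 scaRNAs, scaRNA:MeU5-C46 in CG1142 (726 bp) and scaRNA:MeU1b-A234 opposite egr (833 bp) had an optimal-list summit within 1000 bp (11.8%, against 7.24% of all RNA genes). The host was occupied for 5 more of the 17, and was protein-coding in each case. This count is to be read beside 35 of all 86 protein-coding hosts (40.7%) and 14.7% of protein-coding genes. The 5 were Stt3A for scaRNA:MeU2-C28, CG12316 for scaRNA:MeU5-U42, skd, a Mediator subunit gene, for scaRNA:PsiU6-40, dmt for scaRNA:PsiU1-6 and anchor for scaRNA:MeU4-A65.

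Genes with no host include the U3 snoRNAs, which act in cutting the ribosomal RNA precursor and have promoters of their own. None of snoRNA:U3:54Aa, snoRNA:U3:54Ab and snoRNA:U3:9B had an optimal-list summit within 1000 bp. In the pooled relaxed list U3:54Ab had an entry 26 bp from its start at rank 13593, and the replicates had entries at 102 bp with rank 13280 in replicate 2 and at 284 bp with rank 21212 in replicate 3. U3:9B had a pooled entry 26 bp away at rank 9997, with ranks of 27687 at 206 bp in replicate 2 and 3987 at 27 bp in replicate 3. U3:54Aa had no pooled entry within 1000 bp, the nearest lying 1524 bp away. The gene scaRNA:MeU1:95C-A24, also hostless, had a pooled entry 489 bp away at rank 5682, with 6205 in replicate 2 and 8701 in replicate 3.

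In the relaxed lists entries near snoRNA and scaRNA genes were common and mostly weak. Within 500 bp, 114 of the 274 had an entry in the pooled list, against 30.3% of all RNA genes, 104 in replicate 2, against 31.0%, and 85 in replicate 3, against 26.3%. Within 1000 bp the counts were 184 against 47.0%, 167 against 46.1% and 145 against 45.8%. The median rank of these entries within 500 bp was 16282 in the pooled list, 16232 in replicate 2 and 15120 in replicate 3, far below the optimal list. Both replicates had an entry within 500 bp at 43 genes and neither had one at 128. The same counts over all RNA genes are not given here, so these describe no trait of snoRNA and scaRNA genes. Among genes whose nearest pooled entry lay within 500 bp but outside the optimal list, the best rank was 3108, for the entry 224 bp from snoRNA:Me28S-G3081a of Uhg1.

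The proteins that work with snoRNAs were looked up by a list of 18 names, of which 17 matched an annotated gene. Of these 17, 3 were occupied, namely pont, rept and NHP2, a share near the 14.7% of protein-coding genes. The genes pont and rept, for paired ATPases that take part in assembling box C/D particles, ranked 355 and 1419 in the pooled list, with 410 and 1715 in replicate 2 and 375 and 1393 in replicate 3. NHP2, a core protein of H/ACA particles, ranked 1144 in the pooled list, 1425 in replicate 2 and 1185 in replicate 3. All 3 summits were upstream of the start, by 116 bp at pont, 85 bp at rept and 207 bp at NHP2.

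Core proteins that are hosts themselves were not occupied. Fib, the methyltransferase fibrillarin, had a pooled entry at rank 3606 and nop5, its partner in C/D particles, one at 3643. Nop60B, the pseudouridine synthase of H/ACA particles, had one at 15871. Nopp140, a nucleolar and Cajal body phosphoprotein gene, was closest outside the list at 3029, with 4850 in replicate 2 and 2029 in replicate 3. The exonuclease genes Rrp6 and Rat1 had entries at 3263 and 4058, and U3-55K and CG10341 at 5208 and 5186. Gar1, hoip, coil, Nop10 and Nop56 had pooled entries at ranks between 8431 and 29594, and WDR79, which takes scaRNAs to Cajal bodies, had only a weak one in replicate 3 at 29088.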

How the data were processed

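Peaks came from ChIP-seq of 2 samples of 1 group. Per the deposited sample notes, the authors called a relaxed list per replicate and one on pooled reads, against a control, and derived the optimal list by the irreproducible discovery rate. Which aligner and caller they used is not given in the sources used here. The signal value of each deposited peak is the authors' and was used to rank within a list. Summits are 1-based dm6 positions; the dm3 lists were not used. Genes came from Ensembl release 115 (transposable elements left out) and sequence from RefSeq, Release 6, where all 274 symbols had the same start and end. A host is the smallest gene outside the list that contains the RNA gene on its strand. Ribosomal protein genes were recognised by symbol, with sta added by hand. Counts stand beside the same count over background genes, without tests.

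Named were RNA genes with a summit within 500 bp, hosts of those within 1000 bp, the 20 best ranked occupied hosts, the 10 hosts with most such RNAs, hostless scaRNA and U3 genes, and a snoRNA protein list; mask, eEF1alpha1 and the remaining examples were named after their values were seen. Some genes that the rule would name are not reported here. Members, lists and rules were chosen with earlier results of these data known. Alternatives were other distances, lists, list sizes, gene points and host definitions. Python 3.11.15, numpy 2.4.6 and pandas 2.3.3 were used, and the nearest-summit code was tested on simulated positions.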

Additional observations from a re-analysis of the deposited data

How the results depend on the processing

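No paired analysis was possible because there is 1 group. The count of 7 snoRNA and scaRNA genes with a summit within 500 bp became 1 at 200 bp, 32 at 1000 bp, 11 with peak intervals in place of summits, and 114, 104 and 85 in the relaxed lists of the pooled reads, replicate 2 and replicate 3. The 32 within 1000 bp became 7 at 500 bp, 83 at 2000 bp, and 184, 167 and 145 in those lists. The 37 occupied hosts became 84, 86 and 70 in those lists, and 17 with the strongest 1496 peaks of the optimal list. The 113 RNA genes in occupied hosts became 233, 236 and 193 in those lists, and the single RNA gene over 1000 bp from other starts became 56, 34 and 39. Leaving out a replicate gave 7 to 9 genes within 500 bp, 34 within 1000 bp either way, 28 to 39 hosts, and 105 to 112 RNA genes in occupied hosts. Occupied ribosomal protein genes not taken as a host, 25 of 58, became 16 without replicate 2 and 31 without replicate 3. The other alternatives run kept these counts of snoRNA and scaRNA genes and of hosts within 1.5 times. The relaxed lists are 30000 entries long by construction and hold background. The lists carry no depth, no untagged sample was analysed here, and 2 replicates allow no error on a rank.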

Other observations

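Other small RNA classes were counted in the same way. Within 500 bp of the start an optimal-list summit lay at 2 of 32 snRNA genes and 9 of 290 tRNA genes. At microRNA genes the count was 5 of 260, and 3.80% of all RNA genes had one. The snRNA class holds the genes of the spliceosomal RNAs that scaRNAs modify, and other snRNA genes. The snRNA share was 6.25%, the tRNA share 3.10% and the microRNA share 1.92%. Within 1000 bp the counts were 2, 17 and 13, where 7.24% of all RNA genes had one. In the pooled relaxed list 14 of the 32 snRNA genes, 153 of the 290 tRNA genes and 57 of the 260 microRNA genes had an entry within 500 bp, against 30.3% of all RNA genes.

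Some hostless snoRNA genes had pooled relaxed entries very close to their own start. The gene snoRNA:185 had an entry 136 bp away at rank 4036, with ranks of 4388 in replicate 2 and 2897 in replicate 3. The gene snoRNA:Psi18S-301 had one 31 bp away at rank 8923, with 6985 in replicate 2 at 69 bp and none closer than 1417 bp in replicate 3. The gene snoRNA:Psi28S-3342 on X, 6965 bp from the nearest start of another gene, had one 61 bp away at rank 11450, with 18435 in replicate 2 and 8805 in replicate 3. These genes were picked after their values were seen, and none is in the optimal list.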
